A study of Mus musculus with 12 samples.

Results

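The 7 mature microRNAs cut from the mouse miR-192, miR-194 and miR-215 hairpins were followed in extracellular vesicles of blood plasma after the bile duct was tied. They were taken by name from the deposited table, which listed all 7 among its 1915 mouse names. Of these, mmu-miR-192-5p, mmu-miR-194-5p, mmu-miR-215-5p and mmu-miR-215-3p had enough counts to be tested, while mmu-miR-192-3p, mmu-miR-194-1-3p and mmu-miR-194-2-3p did not. The species prefix is left out from here on. The samples were 6 libraries from male C57BL/6J mice, a common inbred strain, 8 days after bile duct ligation (BDL), and 6 libraries from male C57BL/6J mice 8 days after a sham operation. Ligation of the common bile duct stops bile flow and injures the liver. All mice of both groups had surgery, and no transgene or drug is named. The labels used here give no age. The design text speaks of 6 animals a group, while the labels do not tie a library to an animal, so p-values measure the spread between libraries.

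MicroRNAs are short RNAs cut from a hairpin, whose 5′ or 3′ arm (5p or 3p) guides repression of messenger RNAs, mostly through the seed, bases 2 to 8 of the mature strand. miR-192 and miR-194 are abundant in hepatocytes and in the epithelium of gut and kidney, and miR-215 is known mainly from gut and kidney. The hairpins lie in 2 clusters, each with a copy of miR-194. In human cells the p53 tumour suppressor raises these microRNAs, and miR-192 and miR-215 slow the cell cycle.

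The mature sequences show which members can share targets and which can be told apart by sequencing. All 7 names matched RefSeq on build GRCm38.p6, and both clusters are on the plus strand. The 5p strands are given 5′ to 3′ with the seed in capitals, and miR-194-5p is identical from both hairpins.
miR-192-5p: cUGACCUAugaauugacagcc
miR-215-5p: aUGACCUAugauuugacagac
miR-194-5p: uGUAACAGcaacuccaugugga
miR-192-5p and miR-215-5p have 1 seed, UGACCUA, which no other mature mouse strand in the RefSeq table holds. Counted from 1 at the 5′ end of miR-192-5p, miR-215-5p differs by C1A, A12U and C20A, so 18 of 21 bases match. These are each other's nearest mature sequences, and the number of mismatches the authors' counting allowed is not given in the sources used here. No other mature strand shares the seed of miR-194-5p, GUAACAG.

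The 3p strands differ between the clusters and so carry the name of their own hairpin.
miR-194-1-3p: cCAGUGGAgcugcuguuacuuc
miR-194-2-3p: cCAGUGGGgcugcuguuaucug
miR-192-3p: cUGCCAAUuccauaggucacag
miR-215-3p: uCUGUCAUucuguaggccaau
From miR-194-1-3p to miR-194-2-3p the changes are A8G, C19U, U20C and C22G. Mir194-2 (chr19:6264643-6264728) and Mir192 (chr19:6264844-6264932) are 115 bases apart and overlap no other annotated gene. Mir194-1 (chr1:185313319-185313385) and Mir215 (chr1:185313581-185313692) are 195 bases apart and both lie in an intron of Iars2 on the opposite strand. On their own strand Mir194-1 is in an intron, and Mir215 overlaps an exon, of the noncoding gene 2010103J01Rik.

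Library totals ran from 121003 to 3506914 mouse counts in BDL and from 659302 to 2684636 in sham. The last 2 digits of the sample codes, 24 or 26, have no stated meaning, and 3 libraries of each group carry each. The first digit of the code is shared by 2 libraries of a group, 1 of each suffix, and its meaning is not stated either. If it marked an animal or a cage, each group would hold 3 independent units, and the p-values over 6 libraries would be too small. With group means taken out, the median correlation of log2 CPM was -0.372 in the 6 pairs that share the digit. It was -0.16 in the 24 other pairs within a group. Pairs that share the digit always differ in suffix, so this comparison cannot show what the digit marks. The 3 BDL libraries with suffix 26 (BDL 2, 4 and 6) had 121003 to 666310 counts, and the other 3 BDL libraries 1635616 to 3506914. Sham totals reached from 1380297 to 2684636 with suffix 24, and from 659302 to 2388515 with suffix 26. Depth and suffix therefore moved together within the BDL group, and the levels and ratios of the tested members are also given within each suffix. The smallest chi-square between libraries of a group was 29.9 per degree of freedom, so no library looked like a repeat deposit of another. One label gives liver as the tissue although the material was plasma vesicles, and miR-122-5p, the hepatocyte marker, ranked 1st to 3rd by count in BDL libraries and 5th to 30th in sham libraries.

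The members did not move together after bile duct ligation. miR-192-5p rose about 10.3-fold, both arms of miR-215 fell by 1.18 (5p) and 1.21 (3p) on the log2 scale, and miR-194-5p, made from both clusters, did not pass the test. Counts were compared with edgeR's quasi-likelihood test, with Benjamini-Hochberg adjustment over 341 tested names and a threshold of 0.05. Of these names 145 passed (42.5%), 83 higher in BDL (24.3%) and 62 lower (18.2%), so a call by itself was common, and the median log2 fold change over all tested names was 0.03. Of the 4 tested members, 1 was higher, 2 were lower and 1 did not pass. In the 12 libraries every BDL value lay above every sham value for 40 names (11.7%) and below for 32 (9.38%).

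miR-192-5p, the liver and gut strand, had 11740, 14610 and 38800 CPM (counts per 1000000 counts of the TMM-scaled library) as the lowest, median and highest of 6 BDL libraries, against 1146, 1783 and 2575 CPM in the 6 sham libraries. The groups did not overlap. The means were 19030 ± 10300 CPM in BDL and 1844 ± 508 CPM in sham (SD, n = 6 each). The log2 fold change was 3.37 ± 0.33 (SE; edgeR adjusted p = 1.6e-06), with a 95% interval of 2.67 to 4.07. This was the smallest p-value of all 341 names and the 11th largest rise. By rank within a library, which needs no scaling between libraries, miR-192-5p was 4th to 7th in BDL and 29th to 48th in sham. As a share of mouse counts it averaged 2.13 ± 1.65% over BDL libraries, against 0.182 ± 0.058% over sham libraries (SD; two-sided exact permutation p = 0.00216, the smallest that 6 against 6 can give). BDL 1, at 5.32%, was the highest library, and without it the difference in share was 1.32 percentage points, against 1.95 with it. Within suffix 24 the difference was 2.91 points and within suffix 26 it was 0.99 points, and with miR-486a-5p and miR-486b-5p left out of the total it was 3.69 points. These 2 names had equal mean CPM, 278640 each in BDL and 392088 each in sham. Their edgeR fits were equal too, with a log2 fold change of -0.49 ± 0.27 (SE) for each. All other totals and shares include both, so equal values enter each total under both names and make the shares of other names smaller. Whether both names count the same reads was not tested.

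miR-215-5p, which carries the same seed, moved the other way. It had 360, 658 and 997 CPM as the lowest, median and highest in BDL, against 879, 1584 and 2056 CPM in sham. The groups overlapped only through BDL 1 and BDL 3, which exceeded the lowest sham library, sham 1. The means were 669 ± 272 CPM in BDL and 1522 ± 397 CPM in sham (SD, n = 6 each). On the log2 scale the fold change was -1.18 ± 0.30 (SE; edgeR adjusted p = 0.00419). As a share of mouse counts it averaged 0.0728 ± 0.0415% over BDL libraries, against 0.148 ± 0.040% over sham libraries (SD; exact permutation p = 0.0152). With miR-122-5p left out of the total, the difference in share had an exact permutation p of 0.0714, and with no filter on low counts the edgeR adjusted p of its level was 0.0506. The difference in share was -0.0754 points in all libraries, -0.0376 in suffix 24, -0.113 in suffix 26 and -0.446 with miR-486a-5p and miR-486b-5p left out of the total.

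miR-215-3p, the other arm of the same hairpin, also fell. It had 0, 8.91 and 13.3 CPM as the lowest, median and highest in BDL, against 15.2, 22.2 and 26.5 CPM in sham. Every BDL library lay below every sham library, although 3 BDL libraries had 4 counts or fewer. BDL 4 had a count of 0, which in this library of 121003 counts allows up to 24 CPM, so its value cannot be placed below those of sham. The log2 fold change was -1.21 ± 0.38 (edgeR adjusted p = 0.0162), and the adjusted p was 0.0599 with scaling by total counts only, 0.126 with no filter and 0.0661 without the 3 suffix 26 BDL libraries.

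miR-194-5p, the strand both clusters make, had 79.9, 321 and 761 CPM as the lowest, median and highest in BDL, against 149, 191.8 and 375 CPM in sham. The groups overlapped, and the lowest and the highest of all 12 values were both BDL libraries. The means were 374 ± 234 CPM in BDL and 220 ± 83 CPM in sham (SD, n = 6 each), and the log2 fold change was 0.78 ± 0.40 (edgeR adjusted p = 0.123). The 95% interval of -0.05 to 1.62 holds both no change and a rise larger than the fitted one, so the test does not show that the level stayed the same. The lowest value, in BDL 4, was 10 counts, with an exact Poisson interval of 4.8 to 18.4 counts. Without BDL 4 the log2 fold change was 0.93 (edgeR adjusted p = 0.031), and without BDL 1, the highest library, it was 0.41 (adjusted p = 0.41). The share of mouse counts of miR-194-5p averaged 0.0421 ± 0.0349% in BDL and 0.0219 ± 0.0094% in sham (SD; exact permutation p = 0.221). The difference in share was 0.0202 points. It was 0.0302 points with miR-122-5p left out of the total and -0.00024 points with miR-486a-5p and miR-486b-5p left out (exact permutation p = 0.128 and 0.996).

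**Figure D1:**
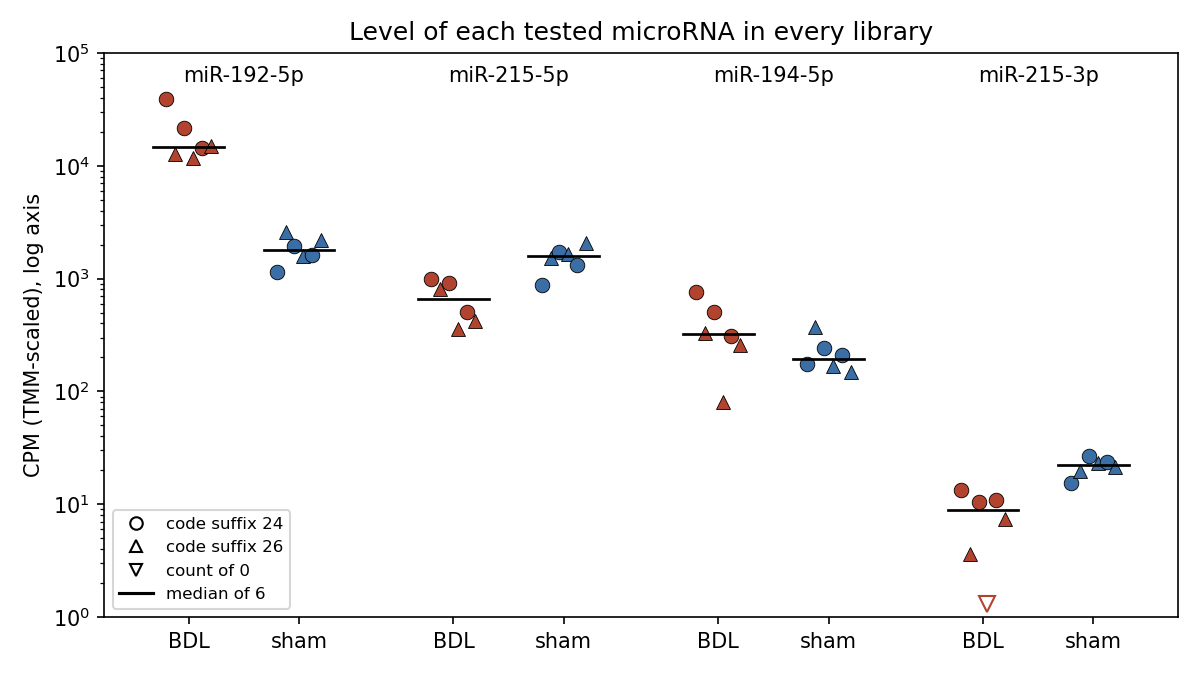
CPM of the 4 tested members (log axis), 1 symbol per library, BDL left of sham for each, circles for code suffix 24, triangles for 26 and a line at the median of 6. miR-192-5p is separated between groups with BDL higher (11740 to 38800 against 1146 to 2575 CPM), both miR-215 strands are lower in BDL, and miR-194-5p overlaps. The open triangle stands for a count of 0 and is placed at an arbitrary height.

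**Figure D2:**
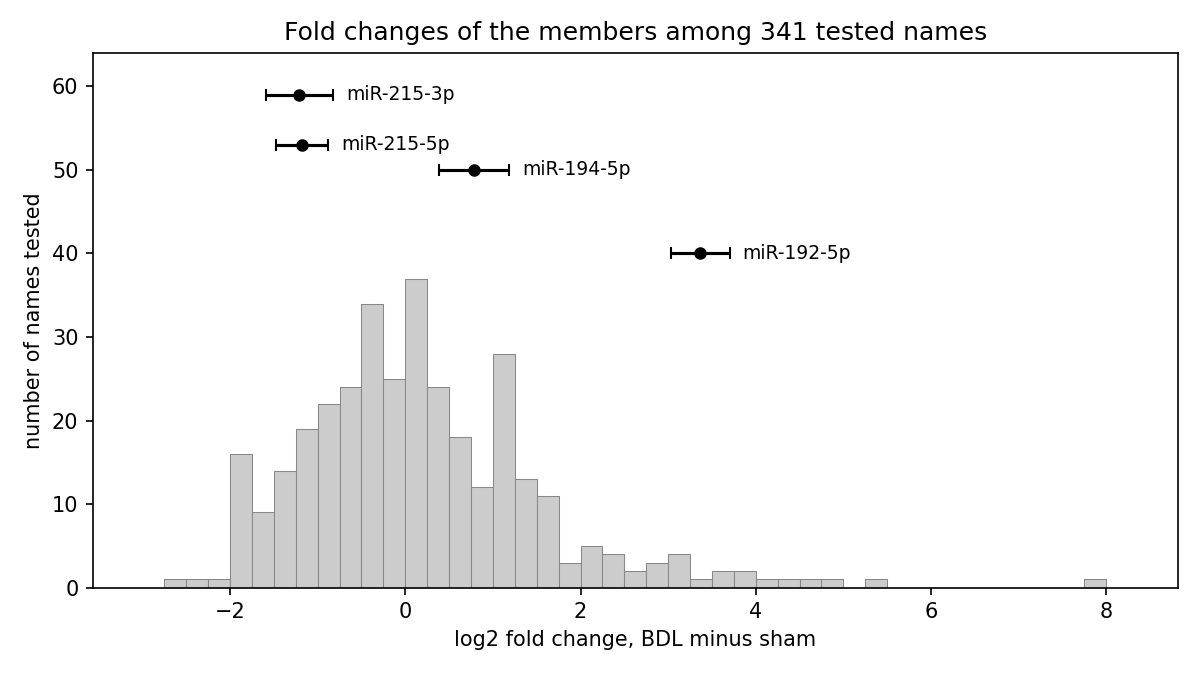
Number of tested names by log2 fold change, BDL minus sham (grey bars), with the 4 members as points at arbitrary heights and bars of 1 SE. miR-192-5p, at 3.37, lies in the right tail, miR-194-5p at 0.78 and the miR-215 strands at -1.18 and -1.21 lie within the bulk of the 341 names.

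Comparing members within a library removes the scaling between libraries and tests whether their changes differed. Of 10 planned ratios, the 7 whose names both had at least 5 counts in at least 6 libraries were compared by two-sided exact permutation tests, adjusted over the 7. Each log2 ratio used counts plus 0.5.

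Of the pairs of members, the strands with the same seed parted most. miR-192-5p exceeded miR-215-5p by 15.8, 30.1 and 38.9 times as the lowest, median and highest of the BDL libraries, against 0.962, 1.18 and 1.68 times in sham. In sham the 2 strands were close to even, with miR-192-5p the higher in 5 of 6 libraries and a mean log2 ratio of 0.28 ± 0.28 (SD), while in BDL the mean was 4.80 ± 0.47. The difference of 4.52 ± 0.22 (SE) had an exact permutation adjusted p of 0.00379 and was 4.60 within suffix 24 and 4.45 within suffix 26. Put as a share of all reads with this seed, miR-215-5p made up 2.51 to 5.95% in BDL libraries and 37.3 to 51% in sham libraries. The summed level of the seed pair was 12100 to 39797 CPM in BDL and 2025 to 4257 CPM in sham.

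miR-192-5p and miR-194-5p, neighbours in the chromosome 19 cluster, also parted. There were 38.6, 48.3 and 140 reads of miR-192-5p for each read of miR-194-5p as the lowest, median and highest of the BDL libraries, against 6.60, 7.83 and 14.7 in sham. The groups did not overlap, and the difference of the log2 ratio was 2.72 ± 0.33 (SE; exact permutation adjusted p = 0.00379). The highest value was that of BDL 4, which has the 10 reads of miR-194-5p. Leaving out any 1 library gave differences of 2.46 to 2.88.

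miR-194-5p, read from both clusters together, was higher relative to miR-215-5p in BDL. The ratio was 0.231, 0.579 and 0.763 as the lowest, median and highest of the BDL libraries, against 0.073, 0.151 and 0.245 in sham. Only BDL 4 fell within the sham range. The difference of the log2 ratio was 1.80 ± 0.36 (SE; exact permutation adjusted p = 0.00606). The 3 5p strands therefore kept the order miR-192-5p, miR-215-5p, miR-194-5p in every BDL library, and in sham only the first pair was not separated beyond its spread.

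The arms of miR-215 were not shown to part from each other. The ratio of 5p to 3p was 45.7, 80.0 and 179 as the lowest, median and highest of the BDL libraries, the highest resting on a 3p count of 2, against 55.0, 66.7 and 93.1 in sham. The difference of the log2 ratio was 0.21 ± 0.31 (SE; exact permutation adjusted p = 0.55). It was 0.18 among suffix 24 libraries and 0.24 among suffix 26 libraries. BDL 4 had a 3p count of 0, so its ratio rests on the 0.5 added. With 0.1 added to each count the difference was 0.65, and with 2 added it was -0.26 (exact permutation adjusted p = 0.312 and 0.496). Its sign thus depended on the amount added. Over all libraries of a group the 3p strand was 1.29% of the 8883 reads of the hairpin in BDL (exact 95% binomial interval 1.07 to 1.55%) and 1.47% of the 14639 reads in sham (1.28 to 1.68%), intervals that cover counting error only.

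**Figure D3:**
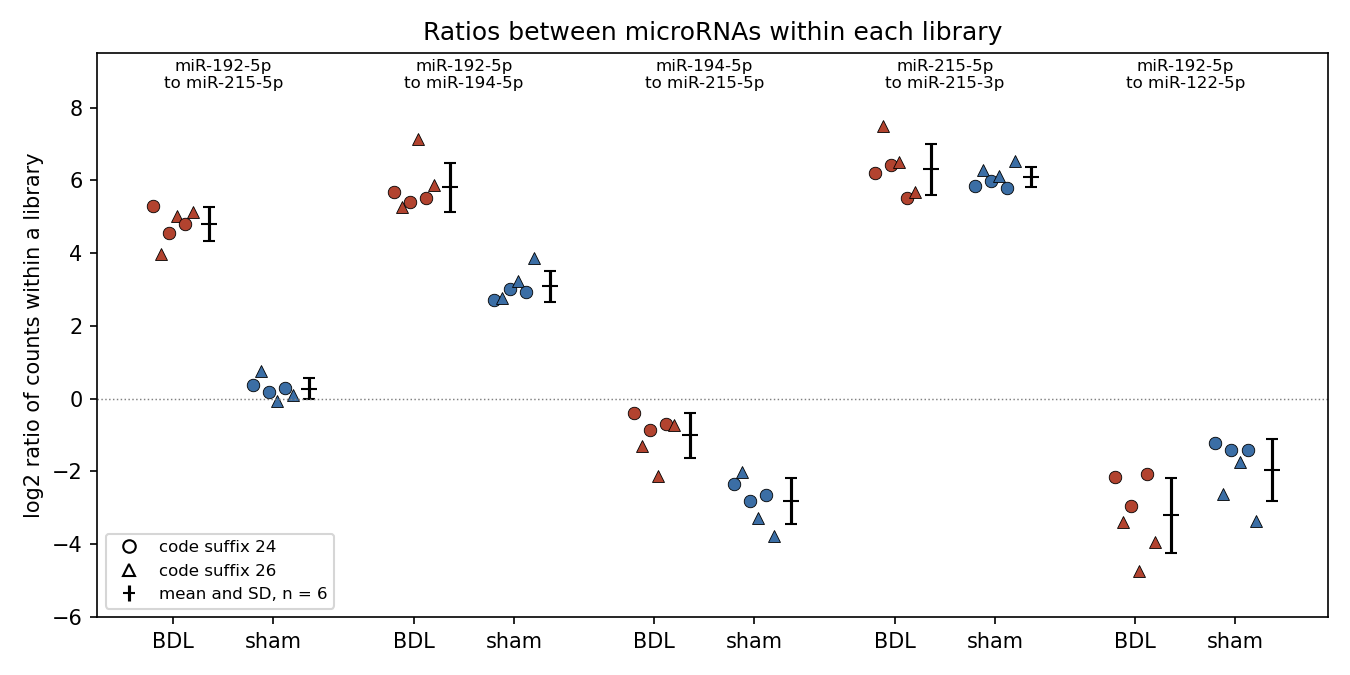
Log2 ratio of the counts of 2 microRNAs within each library for 5 of the ratios, BDL left of sham, circles for code suffix 24, triangles for 26, with the mean and SD of 6 libraries beside them. The ratios of miR-192-5p to miR-215-5p and to miR-194-5p separate the groups, with BDL means of 4.80 and 5.81 against sham means of 0.28 and 3.09, while the ratio of the miR-215 arms overlaps.

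miR-122-5p, made almost wholly by hepatocytes, was the liver marker against which the members were set. It had 60140, 170500 and 315900 CPM as the lowest, median and highest in BDL, against 2694, 5223 and 22860 CPM in sham. The ratio of miR-192-5p to miR-122-5p was 0.0372, 0.111 and 0.238 as the lowest, median and highest in BDL, against 0.0964, 0.334 and 0.425 in sham. The groups overlapped, and the difference of the log2 ratio, -1.24 ± 0.55 (SE), missed the threshold (exact permutation adjusted p = 0.0581). It passed without BDL 1 (-1.46, adjusted p = 0.0354), without BDL 5 (-1.47, 0.0354) or without sham 6 (-1.53, 0.0202) in the same exact test. With counts summed over the libraries that share a code digit the difference was -0.65, and it was -1.04 in suffix 24 and -1.45 in suffix 26. Against miR-122-5p, miR-194-5p was lower in BDL by -3.96 ± 0.81 and miR-215-5p by -5.77 ± 0.60 on the log2 scale (exact permutation adjusted p = 0.00379 for each). In suffix 24 and suffix 26 these were -3.69 and -4.24 for miR-194-5p, and -5.64 and -5.89 for miR-215-5p.

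The remaining 3p strands were too rare to test. miR-192-3p had 6 counts in all of BDL, 5 of them in BDL 1 and 1 in BDL 3, and 1 count in all of sham. It was thus 6 of 283571 reads of its hairpin in BDL (0.00212%, exact 95% binomial interval 0.000776 to 0.00461%) and 1 of 18729 in sham (0.00534%, 0.000135 to 0.0297%). The 3p share of Mir192 was far below that of Mir215 in both groups.

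The miR-194 3p strands tell the clusters apart where the 5p strand cannot. miR-194-2-3p, from the chromosome 19 cluster with miR-192, had 22 counts in BDL (14 in BDL 1, 6 in BDL 3 and 2 in BDL 5) and 4 in sham (3 in sham 5 and 1 in sham 1). miR-194-1-3p, from the chromosome 1 cluster with miR-215, had 14 counts in 5 BDL libraries and 19 counts in 4 sham libraries. Of the reads of both, the chromosome 19 strand made up 61.1% in BDL (22 of 36, exact 95% binomial interval 43.5 to 76.9%) and 17.4% in sham (4 of 23, 4.95 to 38.8%). These intervals cover counting error only, and without BDL 1 the BDL share was 38.1% (8 of 21, 18.1 to 61.6%), whose interval overlaps that of sham. With no filter on low counts edgeR gave log2 fold changes of 1.91 ± 1.00 for miR-194-2-3p (adjusted p = 0.234), 0.05 ± 0.95 for miR-194-1-3p (adjusted p = 0.984) and 1.56 ± 1.14 for miR-192-3p (adjusted p = 0.429).

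Within each code suffix the direction was the same for miR-192-5p and for both arms of miR-215, with different sizes. miR-192-5p rose by 4.01 ± 0.40 in suffix 24 and by 2.60 ± 0.37 in suffix 26 on the log2 scale (SE; edgeR adjusted p = 4.94e-06 and 3.13e-05). These fits had 3 libraries against 3, with 31.8% of 403 names past the threshold in suffix 24 and 39.2% of 265 names in suffix 26. miR-194-5p rose by 1.36 ± 0.33 in suffix 24 (edgeR adjusted p = 0.007) and had -0.10 ± 0.50 in suffix 26 (adjusted p = 0.875). miR-215-5p had -0.66 ± 0.31 in suffix 24 (adjusted p = 0.12) and fell by 1.78 ± 0.38 in suffix 26 (adjusted p = 0.0013). miR-215-3p had -0.87 ± 0.40 in suffix 24 (adjusted p = 0.11) and fell by 2.18 ± 0.72 in suffix 26 (adjusted p = 0.0207).

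All 4 members were thus lower, relative to sham, in suffix 26 than in suffix 24. By edgeR's test of the interaction, suffix 26 minus suffix 24 was -1.36 for miR-192-5p (adjusted p = 0.118), -1.35 for miR-194-5p (adjusted p = 0.256), -1.02 for miR-215-5p (adjusted p = 0.278) and -1.25 for miR-215-3p (adjusted p = 0.362). That test called 8 of 341 names (2.35%) and none of these. Its unadjusted p-values were 0.0135 for miR-192-5p and 0.0488 for miR-194-5p. Unadjusted p-values under 0.05 were common in it, with 65 of the 341 names. The BDL minus sham difference of the log2 ratio of miR-192-5p to miR-194-5p was 2.65 in suffix 24 and 2.79 in suffix 26, and that of miR-194-5p to miR-215-5p was 1.95 and 1.66, values with no test of their own. Depth moved with the suffix in BDL, and its part in these differences was not tested.

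**Figure D4:**
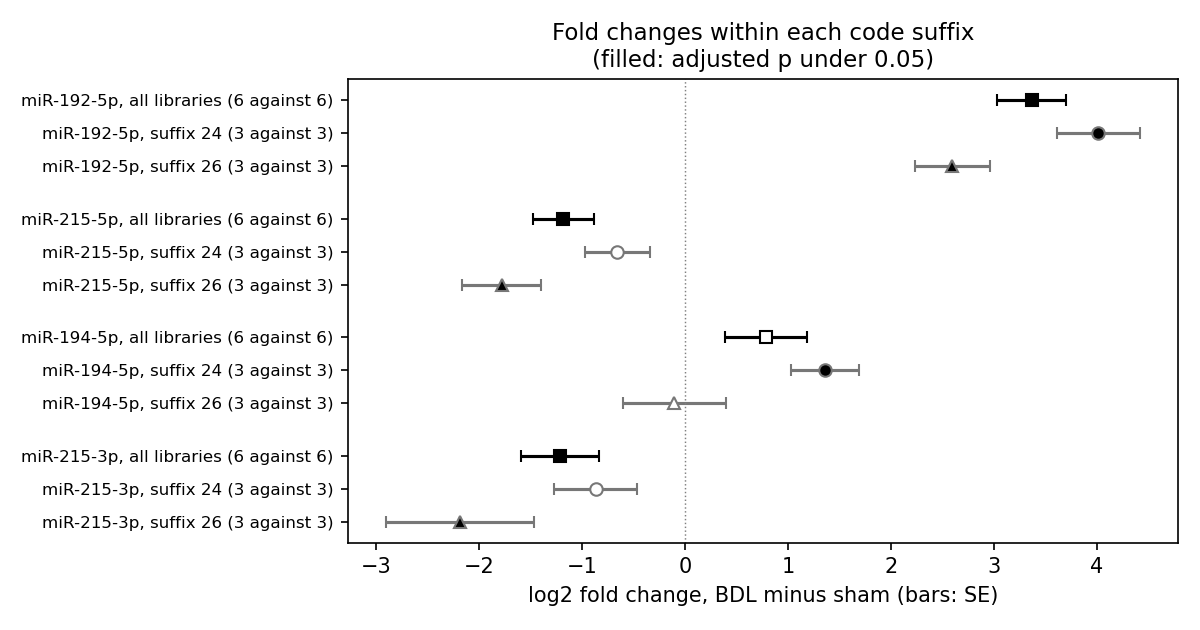
Log2 fold change, BDL minus sham, of each tested member with its SE, for all libraries (squares), suffix 24 (circles) and suffix 26 (triangles). Filled symbols are past an adjusted p of 0.05. Each member lies further left in suffix 26, where miR-192-5p is at 2.60 against 4.01 in suffix 24.

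After each group's mean was taken out, the tested members varied together from library to library, to differing degrees. Over the 12 libraries Pearson's r of log2 CPM was 0.738 between miR-192-5p and miR-194-5p, 0.738 between miR-192-5p and miR-215-5p and 0.667 between miR-194-5p and miR-215-5p. For miR-215-3p it was 0.582 with miR-192-5p, 0.82 with miR-194-5p and 0.569 with miR-215-5p, the other arm of its hairpin. These points share library depth and scaling. With the group means left in, r between miR-192-5p and miR-215-5p was -0.625.

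Among the other tested names, those most like miR-192-5p over 12 libraries were miR-122-5p (r = 0.928), miR-501-3p (0.924) and miR-322-3p (0.915). With group means taken out they were miR-532-5p (0.851), miR-10a-5p (0.826) and miR-322-3p (0.816), so miR-122-5p was most alike through the difference between groups, and its r within groups was 0.386. The names most like miR-194-5p were miR-22-3p (0.925), miR-29a-3p (0.912) and miR-24-2-5p (0.884), and with group means taken out miR-24-3p (0.936), miR-22-3p (0.931) and miR-676-5p (0.925). For miR-215-5p they were miR-5113 (0.903), miR-1839-5p (0.893) and miR-28a-5p (0.889), and with group means taken out miR-1839-5p (0.889), miR-22-3p (0.831) and miR-5113 (0.818).

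Lists of related microRNAs set the members in context, beside the 24.3% of all tested names that were higher and the 18.2% that were lower. Of 13 hepatocyte names 8 were tested, 3 higher, 1 lower and 4 not past the threshold in BDL, with a median log2 fold change of 0.75. The 6 tested names that were not members had 2 higher, 1 lower and a median of 0.20, against 0.03 for all names. The higher ones were miR-122-5p (4.26 ± 0.55) and miR-193a-5p (3.21 ± 0.39). The lower one was miR-101a-3p (-0.95 ± 0.30; edgeR adjusted p = 0.016), whose adjusted p was 0.0795 with total counts only, 0.126 with no filter and 0.0999 without the suffix 26 BDL libraries. The summed level of the list was 89470 to 347700 CPM in BDL and 20370 to 60640 CPM in sham. By mean CPM the largest part was miR-122-5p in BDL (179800). In sham it was miR-148a-3p (20150), which did not pass (-0.32 ± 0.28; edgeR adjusted p = 0.4).

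Of 14 names of gut and kidney epithelium 10 were tested, 1 higher, 3 lower and 6 not past the threshold, with a median of -0.01. Apart from the members, 2 of 7 were lower by edgeR, where 18.2% of all names were, and the other 5 did not pass, with a median of -0.14. The lower ones were miR-200c-3p, of the epithelial miR-200 family (-1.62 ± 0.48; adjusted p = 0.0124), and miR-204-5p, known from kidney (-1.89 ± 0.54; adjusted p = 0.00939, and 0.104 in suffix 24). The list summed to 17340 to 57840 CPM in BDL and 8374 to 14140 CPM in sham, of which miR-192-5p was the largest part in BDL.

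Of 14 names known to be raised by p53, 6 were tested, 2 higher, 3 lower and 1 not past the threshold, with a median of -0.17. Members made up 3 of the 6, and the other 3 had 1 higher, 2 lower and a median of -1.13. The higher one was miR-145a-5p (1.31 ± 0.41; edgeR adjusted p = 0.0156). It missed the threshold when BDL 1, BDL 2, sham 3, sham 5 or sham 6 was left out (adjusted p = 0.0522 to 0.0655), with no filter (0.0665), in suffix 26 (0.0518) and after thinning to the shallowest library (0.0541). The lower ones were miR-143-3p (-1.13 ± 0.25; edgeR adjusted p = 0.00169, and 0.0594 with no filter) and miR-16-5p (-2.06 ± 0.46; adjusted p = 0.00164), a strand also abundant in red cells.

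Of 7 tested red cell names 3 were lower in BDL by edgeR and the other 4 did not pass, with a median log2 fold change of -0.64. The lower names were miR-451a (-2.63 ± 0.33), which is made in maturing red cells and had the largest fall of all tested names, miR-486a-3p (-1.74 ± 0.24) and miR-16-5p. The 8 listed names summed to 150200 to 406600 CPM in BDL and 386400 to 587400 CPM in sham. The largest part was miR-486a-5p, with means of 278600 CPM in BDL and 392100 CPM in sham, which did not pass (edgeR adjusted p = 0.153). Of 8 platelet and leukocyte names, all tested, 5 were lower by edgeR, where 18.2% of all names were, and the other 3 did not pass, with a median of -1.40.

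The lower platelet and leukocyte names were both arms of miR-126a, known from platelets and endothelium, both arms of miR-142a, known from blood cells, and miR-150-5p, known from lymphocytes (-1.96 ± 0.41; edgeR adjusted p = 0.00128). miR-126a-3p was at -0.68 in suffix 24 (adjusted p = 0.0527), against -1.79 in all libraries. miR-126a-5p missed the threshold in suffix 24 (adjusted p = 0.081), with total counts only (0.0669) and without the suffix 26 BDL libraries (0.0959). miR-142a-3p missed it with counts summed per code digit (0.0577) and without the suffix 26 BDL libraries (0.0666). The list had sums of 1731 to 6720 CPM in BDL and 8714 to 14160 CPM in sham. No listed marker found in the table was at 0 in every library. The part of blood cell RNA in the fall of miR-215 was not tested, and in plasma fewer vesicles from a source and less RNA per vesicle cannot be told apart.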

How the data were processed

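Small RNA was sequenced from vesicles precipitated from plasma, per the labels' protocols. The authors deposited whole-number read counts per mature microRNA name, with no normalisation. The tools were cutadapt and STAR, per the submitters' processing notes, with no version named, and the genome build is not given in the sources used here. No molecular identifiers are described, so reads are not known to stand for separate molecules. Intervals cover the counting error of reads only.

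Only the 1915 mouse names entered totals and tests, and the 67 other names held at most 0.00786% of a library. Counts were tested with edgeR 4.0.16 (R 4.3.3, TMM scaling, filterByExpr by group, robust quasi-likelihood F test), checked on simulated counts. Each SE was taken as |log2 fold change| over √F. Log2 CPM used a prior count of 2. Ratios and shares were compared by exact permutation (scipy 1.17.1). A count of 0 allows 3 counts. Alternatives used other scaling, filters, DESeq2 1.42.0, limma-voom (limma 3.58.1), the sample number as a block, code suffixes, counts summed per code digit, thinning and leaving out each library. The fit without the suffix 26 BDL libraries was added after the data were seen. The members and lists were chosen with earlier results of these data known. Named microRNAs are the members, miR-122-5p, miR-451a and the 3 names most correlated with each 5p strand, with and without group means. From the lists, names past the threshold or largest in a list's sum are named. Positions and sequences are RefSeq's (GRCm38.p6) and host genes GENCODE M21's (GRCm38).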

Additional observations from a re-analysis of the deposited data

Results flagged for a closer look

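Of 28 sets of 6 values (levels, ratios and shares of the members in each group), 2 had 1 library standing well apart; about 1 set in 20 would do so by chance. The log2 ratio of miR-192-5p to miR-194-5p was 7.13 in BDL 4, against 5.27 to 5.87 in the other BDL libraries. BDL 4 was the shallowest library and had 10 counts of miR-194-5p. The share of counts of miR-192-5p was 5.32% in BDL 1, the deepest library, against 1.14 to 2.55% in the other BDL libraries.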

How the results depend on the processing

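The rise of miR-192-5p kept its call under all 26 alternatives run (log2 fold change 2.60 to 4.01). miR-194-5p, not past the threshold in the fit of all libraries, was past it in suffix 24 (1.36), with counts summed per code digit (1.16) and without the 3 suffix 26 BDL libraries (1.27), and leaving out 1 library gave 0.41 to 0.98, past it only without BDL 4. miR-215-5p was not past it in suffix 24 (-0.66) or with no filter (-1.19), and ranged from -1.38 to -1.06 with 1 library left out. miR-215-3p was not past it in suffix 24 (-0.87), with no filter (-1.20), with total counts only (-1.04) or without the suffix 26 BDL libraries (-0.85), and was too rare to be tested after thinning. The ratio of miR-192-5p to miR-122-5p ranged from -1.53 to -0.94 with 1 library left out, and was -0.65 with counts summed per code digit, which gave no test. The share of miR-215-5p differed by -0.0591 percentage points with miR-122-5p left out of the total and by -0.446 with miR-486a-5p and miR-486b-5p left out, where that of miR-192-5p was 3.69 against 1.95. Names past the threshold were 55 higher in suffix 26, and 37 higher and 31 lower after thinning to the shallowest library, where fewer names were tested. The cause of the other changes was not tested. The sample numbers did not pair the libraries (correlation over 0.1 in 2 of 6 pairs, and 2 of 6 BDL libraries correlated best with their own number). With the replicate block miR-192-5p had 3.25, miR-194-5p 0.60, miR-215-5p -1.24 and miR-215-3p -1.31, with no call changed, 73 names were higher and 61 lower, the ratio of miR-192-5p to miR-122-5p passed the threshold (-1.24, exact sign-flip adjusted p = 0.0365) and the share of miR-215-5p did not (-0.0754, exact sign-flip p = 0.0625). The other 6 ratios kept their calls under every alternative that gave a test. Depth limits the 3p strands, 3 of which were too rare to be tested. Thinning left miR-194-5p at 0.86 (edgeR adjusted p = 0.101).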
